A study of Mus musculus with 28 samples.

Results

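The catenins form the cytoplasmic side of cadherin adhesion. Beta-catenin (Ctnnb1) and p120-catenin (Ctnnd1) bind the tails of classical cadherins, and alpha-catenins link beta-catenin to actin. Ctnna1 encodes alpha-E-catenin of epithelia and many other cells, Ctnna2 the neural alpha-N-catenin and Ctnna3 alpha-T-catenin, best known from heart muscle. Ctnnd2 encodes delta-catenin, a neural relative of p120-catenin, and beta-catenin is also the transcriptional co-activator of canonical Wnt signaling.

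These 6 genes were followed in RNA-seq of 28 single mouse brain cells, chosen by name among the 23453 genes of a table of exonic counts and the 20422 genes of a table of intronic counts. All 6 members were listed in each table and passed the minimum of 10 counts over the 28 cells. The sample labels name 8 astrocytes and 12 neurons from primary cultures of C57/BL6 cortex, taken by pipette, and 8 interneurons of C57/BL6/N mice, taken by patch clamp pipette from acute slices of cortex. The protocol text sets a perfused male mouse of 3 months beside the cultured cells. The authors' paper gives such a mouse for its tissue sections, and describes its dispersed mouse cultures as embryonic and of mixed sex. No animal, culture or treatment is given for a single cell.

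The columns of the tables carry codes that match 0 of the sample labels. They were split by code into a high-numbered BRP block (BRP564 and BRP566 to BRP572, 8 cells), a low-numbered BRP block (the other 12 BRP cells) and an F block (8 cells). The block sizes equal the labelled numbers of astrocytes, neurons and interneurons, but that identity is only presumed from size and markers. No test between cell types was therefore made, and each value below is a description of these cells. If the F cells are the slice interneurons, cell type cannot be told apart from culture or slice, strain label or way of harvest. Nor can it be told apart from library kit and sequencer, which also differed between cultured and slice cells.

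Levels are in CPM, the counts of a gene per 1000000 counts of the cell's own exonic total (838343 to 26770944 counts) or intronic total (831965 to 11098985 counts). The summed exonic level of 8 astrocyte markers was 2650 to 6968 CPM in the high-numbered block, 205 to 2463 CPM in the low-numbered block and 1.19 to 4363 CPM in the F block. For 6 neuronal markers the ranges were 299 to 801, 4737 to 8469 and 1608 to 16746 CPM. The 9 interneuron markers summed to 8.23 to 190 CPM, 0.538 to 3124 CPM and 565 to 11886 CPM. For 6 oligodendrocyte and precursor markers the sums were 7.09 to 179 CPM, 0.235 to 610 CPM and 0 to 1438 CPM. F11 (1438 CPM) and F12 (1295 CPM) had the highest of these sums of all cells, above their interneuron sums (565 and 796 CPM). F16 had 2093 CPM of microglia markers, beside 4826 CPM of interneuron markers and 16636 CPM of neuronal markers. The identity of single F cells is thus uncertain. Intronic counts took a median of 8.75%, 15.7% and 50.4% of a cell's counts in the 3 blocks. F11 and F12 stood out as a pair: the Spearman correlation of their intronic levels over all genes was 0.84, the highest of 378 pairs of cells, against 0.42 to 0.59 for the 27 other F pairs. The chi-square per degree of freedom of their counts over genes was also the lowest of all pairs, 13.1 for introns and 17.6 for exons, where the next lowest pairs had 113 and 219. By exonic levels the correlation of F11 and F12 did not stand out. It was 0.53, rank 206 of 378, within the 0.20 to 0.54 of the 27 other F pairs. Amplified reads are not independent, so these values do not show whether F11 and F12 came from separate cells, and no source is labelled for either. They were kept as 2 columns, and values that rest on them are also given without them.

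The 3 alpha-catenin genes differ in size by more than their messages do. On GRCm38, Ctnna1 (ENSMUSG00000037815.7) covers chr18:35118859-35254779 on the plus strand, 136 kb with 6.42 kb of exon. Ctnna2 (ENSMUSG00000063063.12) covers chr6:76881637-77979699 on the minus strand, 1098 kb with 6.95 kb of exon. Ctnna3 (ENSMUSG00000060843.11) covers chr10:63430098-65003667 on the plus strand, 1574 kb with 7.23 kb of exon, so that introns make up 99.5% of it. The other members are Ctnnb1 (ENSMUSG00000006932.17, chr9:120929216-120960507, plus strand, 31.3 kb), Ctnnd1 (ENSMUSG00000034101.14, chr2:84600071-84650765, minus strand, 50.7 kb) and Ctnnd2 (ENSMUSG00000022240.10, chr15:30172593-31029341, plus strand, 857 kb). The annotated gene Gm28635, which the tables do not list, shares 4482 bp of exon with Ctnnd1 on the same strand, and Ulk4 shares 759 bp with Ctnnb1 on the opposite strand, so reads there are uncertain.

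By exonic level, Ctnna1 was the leading alpha-catenin of the high-numbered BRP block. Its exonic level there was 577 to 1077 CPM with a median of 744 CPM. In the low-numbered block it ran from 0 to 273 CPM with a median of 21.4 CPM, and 3 of 12 cells had no exonic count. No cell of the low-numbered block reached the lowest cell of the high-numbered block, and the block medians differed 34.8-fold. Ctnna1 was the 1 member of 6 without overlap between these blocks, where 5.72% of 16403 genes had none. The separation was also present with edgeR's TMM factors, DESeq2 size factors and the summed exonic and intronic total. Leaving out a cell cannot undo a separation of ranges, so it is no check here. The highest cell of the low-numbered block was BRP529 with 51.2% of that block's Ctnna1 counts. It held the block's highest level of the astrocyte water channel gene Aqp4 (418 CPM) and its lowest neuronal marker sum (4737 CPM). Its sum of 8 astrocyte markers (2093 CPM) lay below those of BRP538 (2463 CPM), which had 0 exonic Ctnna1 counts, and BRP540 (2141 CPM), where Ctnna1 stood at 27.3 CPM. The part of such markers in the Ctnna1 level was not tested.

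In the F block, 14018 of the 14019 exonic Ctnna1 counts lay in the single cell F7, at 1613 CPM, above every other cell of the data. F2 had 1 count and the other 6 cells had 0. F7 also had the highest astrocyte marker sum of the F block (4363 CPM), nearly all of it from the glutamate transporter gene Slc1a2 at 4350 CPM. The astrocyte filament gene Gfap stood at 1.38 CPM in F7 and Aldh1l1 was at 0 in all 8 F cells. Without F7, Ctnna1 ranged from 0 to 0.181 CPM over the remaining F cells and no longer overlapped the high-numbered block.

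**Figure D1:**
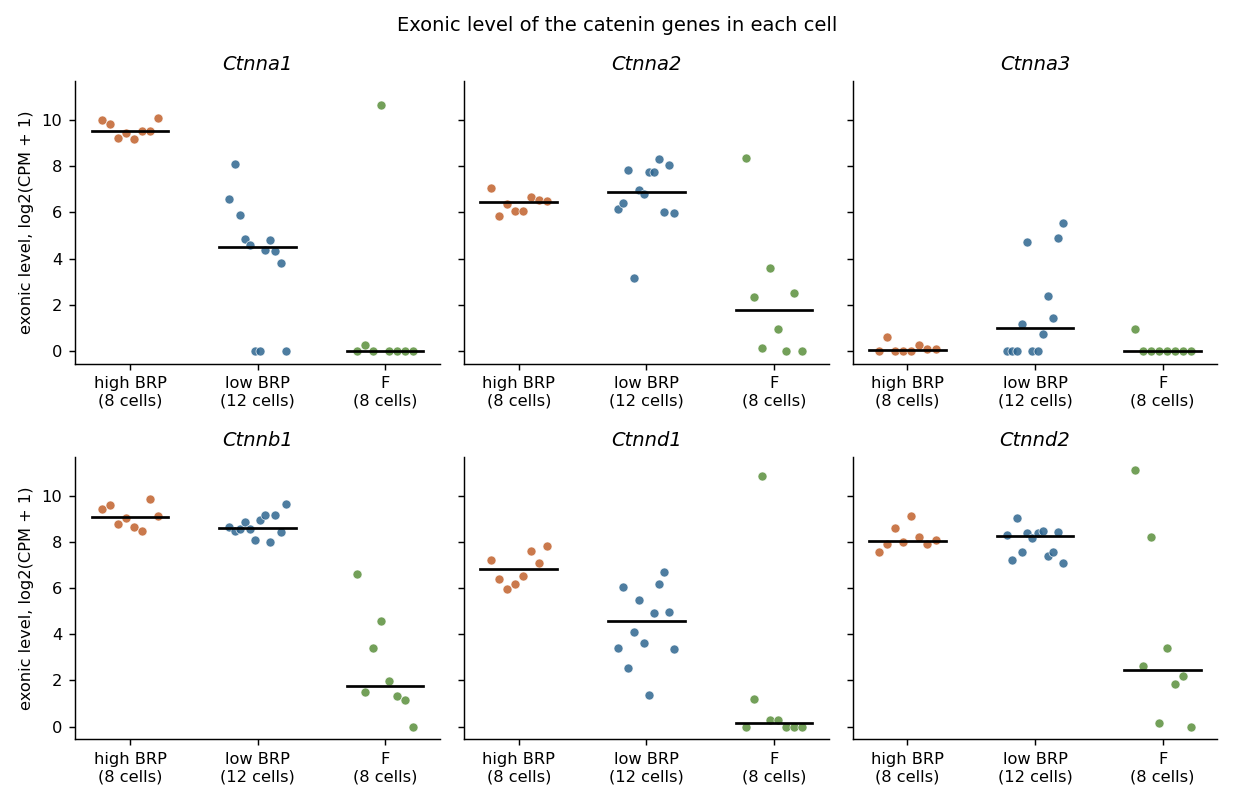
Exonic level of each catenin gene in each cell, as log2(CPM + 1) on the vertical axis, with cells grouped by column block on the horizontal axis. Points are single cells and bars are block medians. Ctnna1 separates the high-numbered BRP block (577 to 1077 CPM) from the low-numbered BRP block (0 to 273 CPM), Ctnnb1 lies above the F cells in every BRP cell, and F7, F6 and F1 stand alone at the top of the F block for Ctnna1, Ctnnd1 and Ctnnd2.

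Ctnna2 was found in both BRP blocks. Its exonic level was 57.1 to 134 CPM, median 85.6 CPM, in the high-numbered block and 7.85 to 317 CPM, median 118 CPM, in the low-numbered block, so the ranges overlapped widely. Among F cells F1 reached 328 CPM and held 97.4% of the counts, and the other 7 cells lay between 0 and 11.2 CPM.

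Set per kb of exon, the make-up of the alpha family differed between the BRP blocks. Ctnna1 made up 88.7% to 94.4% of the summed alpha-catenin level in the 8 cells of the high-numbered block, with a median of 90.1%. In the low-numbered block its share ran from 0% to 78.0% with a median of 11.6%, and Ctnna2 led in 9 of 12 cells with a median of 76.4%. The 3 cells in which Ctnna1 passed 50% were BRP528, BRP529 and BRP535. BRP528 had an astrocyte marker sum of 1390 CPM, with Gfap at 115 CPM, and the highest oligodendrocyte (610 CPM) and interneuron (3124 CPM) marker sums of the low-numbered block, while BRP535 had the second-lowest astrocyte marker sum there (290 CPM). Only 3 F cells had the 10 alpha-catenin counts needed for a share. Ctnna2 made up 99.7% in F1 and 95.3% in F2, and Ctnna1 99.4% in F7.

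**Figure D2:**
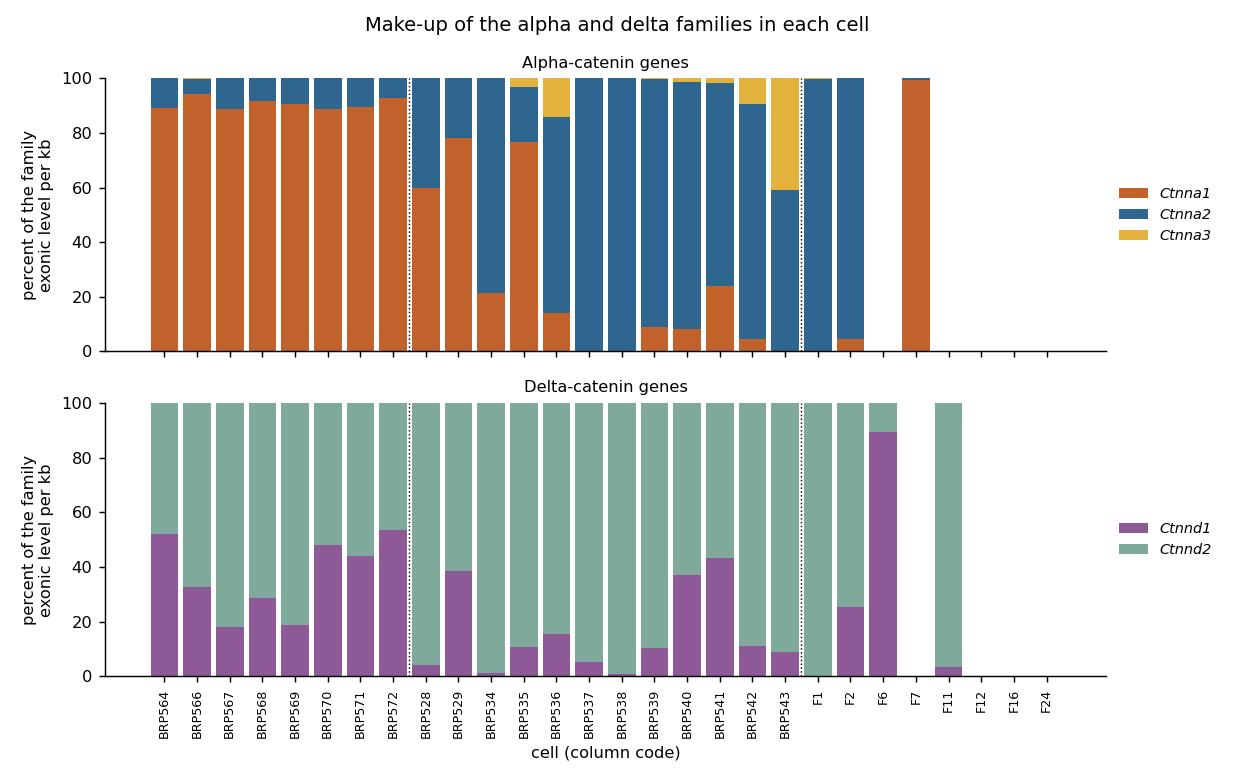
Share of each gene in the summed exonic level per kb of its family, in percent, for each cell, with dotted lines between the high-numbered BRP, low-numbered BRP and F blocks. Cells with fewer than 10 exonic counts in a family have no bar. Ctnna1 fills 88.7% to 94.4% of the alpha family in the first 8 cells, Ctnna2 leads in 9 of the next 12, and Ctnnd2 passes 50% of the delta family in 12 of those 12.

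How far reads can separate the paralogs depends on the runs they share. The longest identical coding run of Ctnna2 and Ctnna3 in GENCODE M21 is 20 bases and is shown here with 5 flanking bases on each side, the 2 bases that differ in capitals. Positions count from the first base of the start codon, 2192 to 2221 in Ctnna2 and 2123 to 2152 in Ctnna3.
Ctnna2: tgtgTatgatcatgatggagatgacAgact
Ctnna3: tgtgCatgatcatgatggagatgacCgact
Ctnna1 shares runs of up to 35 bases with Ctnna2 and 37 bases with Ctnna3. Between all other pairs of members the longest run was 11 to 16 bases, including 12 bases for Ctnnd1 and Ctnnd2. How the authors' counting treated reads in shared runs is not given in the sources used here.

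Ctnna3 had very little exonic signal. It held 2218 exonic counts over the 28 cells, with 16 cells at 0, against 134300 for Ctnna1 and 54208 for Ctnna2, whose exons are of a like total length. Its level was 0 to 0.509 CPM in the high-numbered block (14 counts in all, exact Poisson interval 7.65 to 23.5) and 0 to 45.0 CPM, median 0.962 CPM, in the low-numbered block. All 14 counts of the F block were in F1, at 0.944 CPM. Within the low-numbered block BRP543 (882 counts, 45.0 CPM), BRP542 (597 counts, 29.1 CPM) and BRP536 (25.5 CPM) together held 93.4% of the exonic counts, and the highest of the other 9 cells had 73. In BRP543, which had 0 exonic Ctnna1 counts, Ctnna3 made up 41.0% of the alpha-catenin level per kb.

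The intronic table gave another picture of the same gene. Ctnna3 had at least 30 intronic counts in all 28 cells and 60839 in all. The intronic level was 58.8 to 897 CPM, median 389 CPM, in the high-numbered block and 23.9 to 1270 CPM, median 834 CPM, in the low-numbered block. Over the F cells it ran from 4.37 to 1517 CPM with a median of 41.0 CPM. The top was held by F12 (1517 CPM) and F11 (1494 CPM), the pair with alike intronic profiles. Oligodendrocyte and precursor markers (1295 and 1438 CPM) summed higher in that pair than interneuron markers (796 and 565 CPM). Without that pair the F block reached 418 CPM with a median of 26.6 CPM.

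Of all Ctnna3 counts, 96.5% were intronic (95% exact binomial interval 96.3% to 96.6%). The share passed 90% in 25 of 28 cells, and F1 (74.1%), BRP543 (85.2%) and BRP536 (87.3%) were the exceptions. The paralog Ctnna2 was 82.3% intronic (82.1% to 82.4%) and Ctnna1 5.45% (5.33% to 5.57%). The long Ctnnd2 was 54.2% intronic (54.0% to 54.4%) and the short Ctnnd1 20.9% (20.5% to 21.2%), which became 32.9% without F6. Summed by block, Ctnnd2 and Ctnnd1 had shares of 34.8% and 15.9% in the high-numbered block and 58.8% and 53.4% in the low-numbered block. The sums of the low-numbered block were close, but medians over its cells were 37.9% and 7.76%. BRP541 alone held 50.6% of that block's intronic Ctnnd1 counts. In the F block the shares were 58.4% and 0.514%, where the Ctnnd1 share rested on F6 and was 91.9% without it. Ctnnb1 was 0.985% intronic (0.942% to 1.03%). Among 16344 genes with at least 100 counts the median share was 13.7%, and Ctnna3 stood at the 88.4th percentile and Ctnna2 at the 81.6th. These intervals cover counting error only, since amplified reads are not independent molecules, and single cells spread far more widely.

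**Figure D3:**
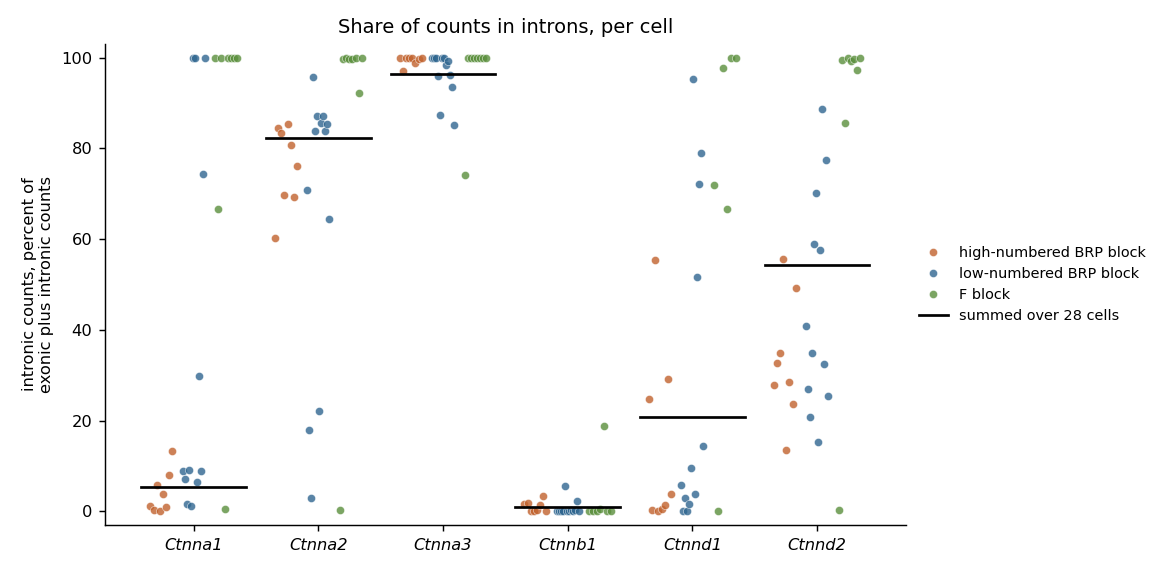
Intronic counts as a percentage of exonic plus intronic counts of each catenin gene, one point per cell with at least 1 count, colored by column block. Black bars are shares of the counts summed over 28 cells. Ctnna3 lies above 90% in 25 of 28 cells (96.5% summed) and Ctnnb1 near the floor (0.985% summed), while Ctnna1, Ctnnd1 and Ctnnd2 spread over much of the axis.

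Per kb of intron, with lengths from GENCODE M21, the order changed. Ctnna3 ranked at the 98.6th percentile of 16005 genes by its intronic count and at the 99.9th by intron length, but at the 59.6th by intronic counts per kb of intron (38.8 per kb over the 28 cells). The other long members remained high per kb, with 230 per kb (91.5th percentile) for Ctnna2 and 208 per kb (90.5th) for Ctnnd2. Ctnnd1 had 290 per kb (93.8th percentile), but 36.8% of its intronic counts were in BRP541 alone and without that cell it had 183 per kb, below Ctnna2 (225) and Ctnnd2 (206). By median intronic CPM per kb over the 28 cells Ctnnd1 ranked 5 of 6. Ctnnb1 had 73.8 per kb and Ctnna1 59.8 per kb.

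The exonic density of a gene, in counts per kb of exon, was then set against its intronic density. Over the 28 cells exons were 7.90 times as dense as introns for Ctnna3, 33.9 times for Ctnna2 and 350 times for Ctnna1, and the median over 13787 genes was 27.3. In the high-numbered block Ctnna3 exons were less dense than its introns, 1.94 against 3.82 counts per kb, a ratio of 0.508. The F block gave 1.94 against 6.88 counts per kb and a ratio of 0.281, but this order rested on F11 and F12. Without that pair intronic Ctnna3 fell from 10781 to 1192 counts (0.761 per kb) and the ratio was 2.55, with all 14 exonic counts from F1. A ratio under 1 was found for 11.4% of genes in the high-numbered block and for 34.9% in the F block. In the low-numbered block the ratio of Ctnna3 was 10.8 (303 against 28.1 counts per kb), and leaving out 1 cell at a time gave values from 7.26 (without BRP543) to 13.3 (without BRP540). The ratio of the F block fell to 0 without F1 and rose to 0.604 without F11, and that of the high-numbered block lay between 0.228 (without BRP566) and 0.723 (without BRP567). With the longest annotated transcript as exon length the ratio was 0.996 in the high-numbered block, 0.552 in the F block and 21.1 in the low-numbered block. Cell by cell, Ctnna3 exons were denser than introns in 7 of 12 cells of the low-numbered block, in 2 of 8 of the high-numbered block and in 1 of 8 F cells. The F ratios of the other members also rested on single cells. Introns were the denser in 6 of 8 F cells for Ctnna1, in 6 for Ctnna2, in 5 for Ctnnd2 and in 3 for Ctnnd1. The F ratio of Ctnna1 went from 1372 to 0.147 without F7, that of Ctnna2 from 13.2 to 0.338 without F1, that of Ctnnd1 from 1146 to 0.520 without F6 and that of Ctnnd2 from 58.4 to 5.80 without F1.

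**Figure D4:**
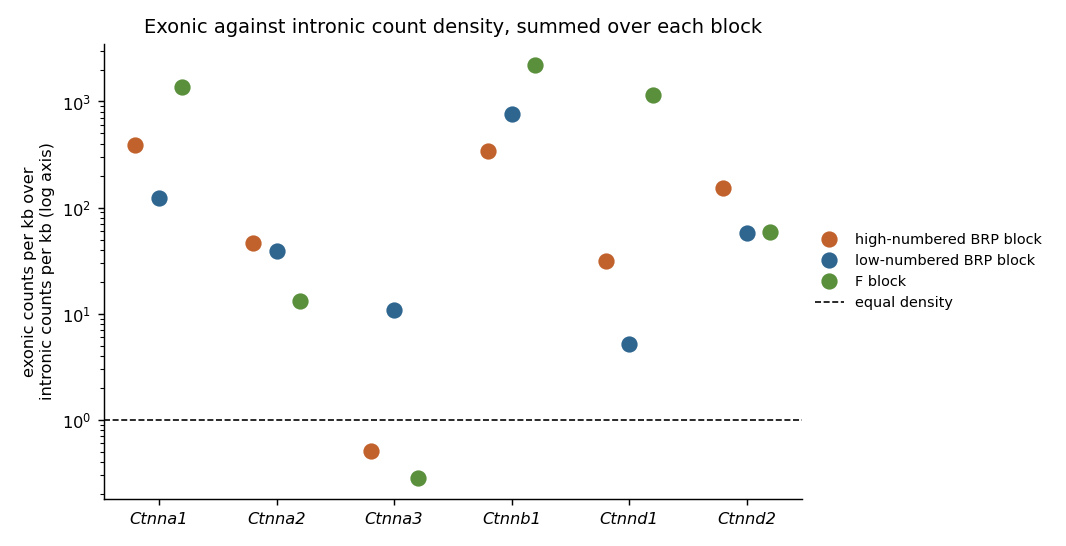
Ratio of exonic counts per kb of exon to intronic counts per kb of intron for each catenin gene, from counts summed over each block and drawn on a log axis. The dashed line marks equal density. Ctnna3 lies below it in the high-numbered BRP block (0.508) and the F block (0.281, but 2.55 without F11 and F12) and above it in the low-numbered BRP block (10.8). The other 5 genes lie above it as drawn, but in the F block Ctnna1 falls to 0.147 without F7, Ctnna2 to 0.338 without F1 and Ctnnd1 to 0.520 without F6.

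Each alpha-catenin gene encloses a gene for a leucine-rich repeat synaptic adhesion protein on its opposite strand. Lrrtm2 (chr18:35209003-35215024) lies inside Ctnna1 and shares 95 bp of exon with it, Lrrtm1 (chr6:77242689-77257791) lies inside an intron of Ctnna2, and Lrrtm3 (chr10:63928472-64090277) takes 10.3% of the span of Ctnna3. The strand setting of the counting is not given in the sources used here. How reads of a host intron and of the gene inside it were divided is therefore not known. Exonic Lrrtm1 was 2.24 to 228 CPM (median 124 CPM) in the low-numbered block, at most 5.43 CPM in the high-numbered block and 0 in all F cells. Exonic Lrrtm3 was 0 to 289 CPM (median 52.4 CPM) in the low-numbered block, at most 0.0510 CPM in the high-numbered block, and in the F block was found in F2 (150 CPM) and F1 (33.2 CPM). Intronic Lrrtm3 counts exceeded those of Ctnna3 in 7 of 28 cells. F7 had 4940 beside 356 intronic and 0 exonic Ctnna3 counts, so not all of its intronic Lrrtm3 reads were also counted for Ctnna3. F11 had 5759 intronic Ctnna3 counts beside 8 of Lrrtm3, and F12 had 3830 beside 2, so high intronic Ctnna3 was also present where Lrrtm3 was near 0. Over 28 cells the Spearman correlation of Ctnna3 with Lrrtm3 was 0.55 for exonic and 0.16 for intronic levels, over points that share libraries. Lrrtm1, Lrrtm2 and Lrrtm4 were listed at 0 in the intronic table in all 28 cells, as were 3162 of its 20422 genes. Lrrtm2 has no intron in the annotation used here, but Lrrtm1 has 12.1 kb and Lrrtm4 785 kb, beside 32278 and 7729 exonic counts. The introns counted by the authors may thus differ from those whose lengths were used here. The effect of this on values per kb of intron and on density ratios was not tested.

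Ctnnb1 had the highest exonic level per kb of the 6 members over all cells (median 72.9 CPM per kb) and in the low-numbered block (75.5 CPM per kb), and ranked behind Ctnna1 in the high-numbered block (104 against 116 CPM per kb), where their ranges overlapped. Its exonic level was 357 to 933 CPM, median 539 CPM, in the high-numbered block and 258 to 797 CPM, median 392 CPM, in the low-numbered block. These blocks overlapped. In the F block it ran from 0 to 96.1 CPM with a median of 2.38 CPM, and F1 held 80.6% of the 1769 counts. Every BRP cell thus lay above every F cell, with block medians 226-fold and 165-fold apart. Without F11 and F12 the F median was 5.76 CPM and these folds were 93.6 and 68.1. Ctnnb1 was the 1 member of 6 without overlap in either comparison, where 19.5% of genes had none between the high-numbered and F blocks and 8.62% between the low-numbered and F blocks. With DESeq2 size factors the F cells overlapped the BRP cells and 0 members were separate in either comparison.

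Most genes stood lower in the exonic table of the F cells. The median log2 ratio of block medians over all genes was 2.46 for the high-numbered over the F block and 1.27 for the low-numbered over the F block, against 6.14 and 4.80 for the median of the 6 catenin genes, on the log2(CPM + 1) scale. DESeq2 size factors lowered the all-gene medians to 1.36 and 0.63. With those factors the ratio of Ctnnb1 was 3.95 and 3.92, from 7.32 and 6.86 with each cell's own total. Between the BRP blocks the catenin median was 0.13 and that of all genes 0. The set of all genes was not matched to the members for level, and the pseudocount keeps ratios of low genes near 0. By percentile among all genes, with each cell's own total, the high-numbered over F ratios ran from 29.2 (Ctnna3) to 99.8 (Ctnna1). The low-numbered over F ratios ran from 47.9 (Ctnna3) to 95.4 (Ctnnb1).

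Ctnnd1, the p120-catenin gene that stabilizes cadherins at the membrane, was 60.8 to 223 CPM in the high-numbered block (median 113 CPM) and 1.57 to 101 CPM in the low-numbered block (median 22.6 CPM). The medians lay 5.00-fold apart and the ranges overlapped. Of the F block, 99.95% of the 22045 counts were in F6, at 1830 CPM, and the next cell stood at 1.26 CPM. F6 was not high in astrocyte markers (4.23 CPM in sum) and had 10461 CPM of interneuron markers. Without F6, Ctnnd1 did not overlap between the F block and either BRP block. Against the low-numbered block the margin was small and near the floor, F2 at 1.26 CPM (7 counts) below BRP538 at 1.57 CPM (35 counts). Other scalings were not tried without F6.

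Ctnnd2 was even between the BRP blocks, with 190 to 550 CPM, median 262 CPM, in the high-numbered block and 136 to 520 CPM, median 301 CPM, in the low-numbered block. The sign of that small difference changed when counts were scaled by the exonic and intronic total. In the F block F1 stood at 2251 CPM with 90.1% of the counts, F6 at 298 CPM, and the other 6 cells between 0 and 9.57 CPM. Per kb, Ctnnd2 passed 50% of the delta-family level in all 12 cells of the low-numbered block and in 6 of 8 of the high-numbered block, where Ctnnd1 took 18.1% to 53.6%. Ctnnd1 and Ctnna1 had a Spearman correlation of exonic levels of 0.59 over 28 cells and 0.74 over the 20 BRP cells, and Ctnna2 and Ctnnd2 one of 0.66 and 0.35, all over cells that share block, depth and preparation.

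Intronic levels of the members overlapped between all blocks. Of the 6 genes 0 were separate between the BRP blocks, 0 between the high-numbered and F blocks and 0 between the low-numbered and F blocks, where 0.231%, 2.77% and 0.501% of 15172 genes were. Intronic Ctnna2 was 2102 to 3531 CPM in the high-numbered block, 70.9 to 5104 CPM in the low-numbered block and 10.8 to 3198 CPM in the F block. F7 held 56.5% of the F counts and the highest value, and without F7 Ctnna2 did not overlap between the high-numbered and F blocks. With each cell's own intronic total Ctnnd2 had close block medians of 1267, 1341 and 1150 CPM, but with the exonic and intronic total they were 105, 155 and 592 CPM and with DESeq2 size factors 642, 1285 and 2282 CPM. F cells with almost no exonic Ctnna2 or Ctnnd2 still had these introns: F7 had 97 exonic and 33626 intronic Ctnna2 counts, and 1 exonic and 11114 intronic Ctnnd2 counts. F1 was the reverse, with 9 intronic beside 4861 exonic Ctnna2 counts and 121 beside 33384 for Ctnnd2. F1 had the lowest intronic share of all cells, 5.31%.

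**Figure D5:**
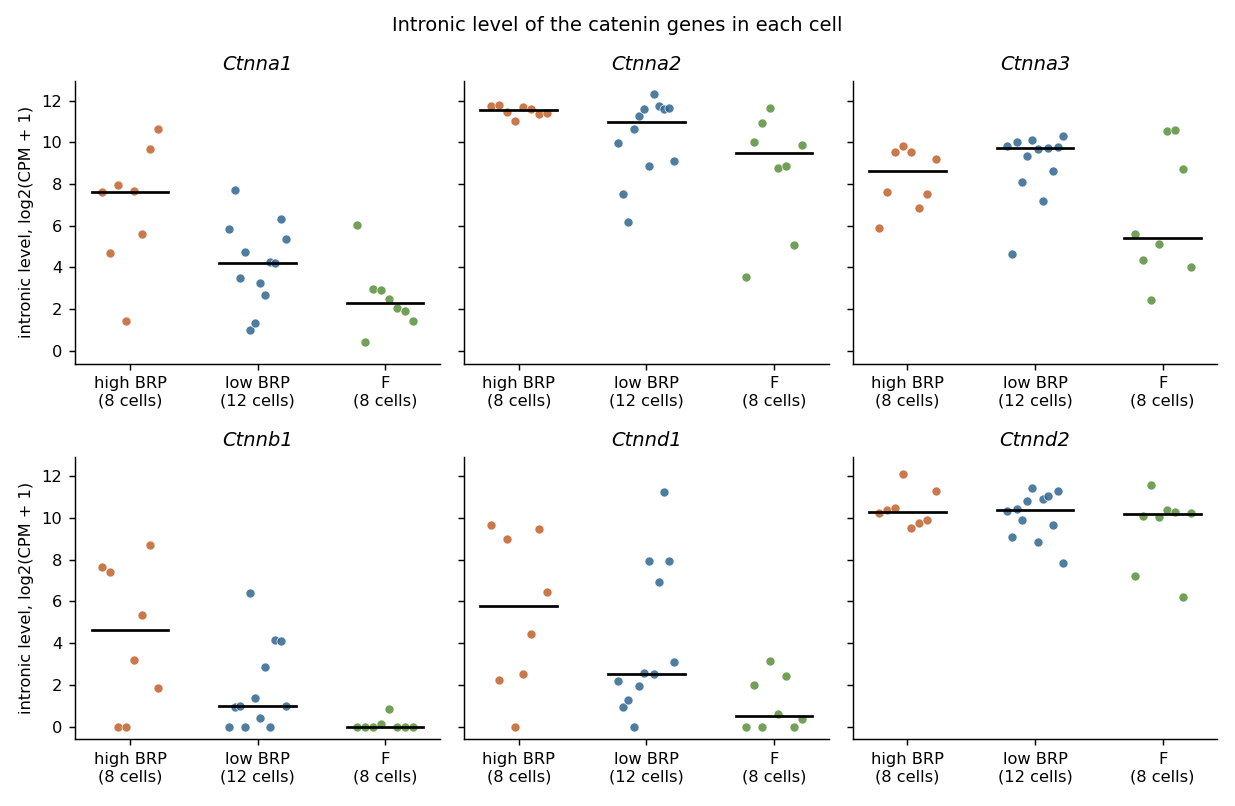
Intronic level of each catenin gene in each cell, as log2(CPM + 1), with cells grouped by column block. Points are single cells and bars are block medians. Ctnnd2 has close medians in the 3 blocks with this scaling (1267, 1341 and 1150 CPM), but 105, 155 and 592 CPM with the exonic and intronic total. Ctnna3 is present in all 28 cells with F12 and F11 at the top of the F block (1517 and 1494 CPM), and Ctnnb1 is at or near 0 in the F cells (at most 0.778 CPM).

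The order of intronic block medians depended on scaling for the long genes. Ctnna2 was higher in the high-numbered than in the low-numbered block by 0.55 (log2), but lower by TMM factors (-0.39) and DESeq2 size factors (-0.46). Ctnna2 and Ctnnd2 stood above the F block in both BRP blocks with each cell's own intronic total, and below it when the exonic and intronic total was used. TMM factors turned 3 of these 4 orders and DESeq2 size factors turned the 2 of Ctnnd2. The intronic medians of Ctnna3 kept their order in all 3 comparisons under each of these scalings, with 389, 834 and 41.0 CPM.

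Among 25 partners of the cadherin junction, 22 passed the count minimum. Of these, 3 were higher in the high-numbered than in the low-numbered block without overlap, where 3.20% of all genes were, and 0 were lower, where 2.52% were. They were Actn1, which crosslinks actin, Ctnnal1, an alpha-catenin relative (217 to 723 against 0 to 49.6 CPM), and the plakophilin gene Pkp2 (45.3 to 309 against 0 to 30.5 CPM). Actn1 was 844 to 2091 CPM, 157 to 787 CPM and 0 to 3.31 CPM in the high-numbered, low-numbered and F blocks. Against the F block 9 of 22 partners were higher in the high-numbered block, beside 19.4% of all genes, and 3 of 22 in the low-numbered block (Cdh4, Actn1 and Actn4), beside 8.62%. In both 0 were lower, where only 0.0305% and 0% of all genes were. Cdh4, the R-cadherin gene, was 12.9 to 52.4 CPM in the high-numbered block and 34.0 to 486 CPM in the low-numbered block. The vinculin gene Vcl had medians of 535, 104 and 0.181 CPM. The list's median log2 ratios were 0.54, 4.58 and 1.18 for the 3 comparisons, beside 0, 2.46 and 1.27 for all genes. The set of all genes was not matched to the list for level.

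Of 33 genes of the Wnt and beta-catenin pathway 31 passed the minimum, and 3 were higher in the high-numbered than in the low-numbered block without overlap (3.20% of all genes were) and 0 were lower (2.52%). These were the transcription factor genes Tcf7 and Tcf7l2, partners of nuclear beta-catenin, and Ctnnbip1, which encodes an inhibitor of that binding. Tcf7l2 was 43.4 to 203 CPM in the high-numbered block, 0 to 20.9 CPM in the low-numbered block and 0 to 1.59 CPM in the F block. Tcf7 reached only 5.05 CPM. Against the F block 9 of 31 pathway genes were higher in the high-numbered block, beside 19.4% of all genes, and 2 of 31 in the low-numbered block, beside 8.62%, the kinase gene Csnk1a1 and the cyclin gene Ccnd1. None was lower in either comparison, where only 0.0305% and 0% of all genes were. Ccnd1, a target of the pathway in many cells, had medians of 508, 108 and 0.0337 CPM. Apc, the scaffold that presents beta-catenin for phosphorylation, overlapped between all blocks with medians of 210, 461 and 190 CPM, as did the receptor gene Fzd3 (403, 361 and 0 CPM). The list's median log2 ratios were 0.24, 3.65 and 1.57.

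By Spearman correlation of exonic levels over 28 cells, among genes found in at least 14 cells, the genes most like Ctnna1 were Tns3 (0.89), Fhl1 (0.89) and Vim (0.88). Those most like Ctnnd1 were Tmco1 (0.91), Timp4 (0.89) and Rpl12 (0.87), and for Ctnnb1 9430016H08Rik (0.91), Serpine2 (0.88) and Daxx (0.88). For Ctnna2 they were Dixdc1, Irgq and Mlycd (0.88 to 0.85) and for Ctnnd2 Kctd17, Gsk3b and Myg1 (0.80 to 0.78), Gsk3b being the kinase that marks beta-catenin for breakdown. Ctnna3 was most like Tmem39b (0.79), Mylk (0.76) and Atxn10 (0.74) by exonic level, and Eps8l1, Mest and Atp8b1 (0.75 each) by intronic level. All of these are ranks over cells that differ in block and depth.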

How the data were processed

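RNA of 28 single mouse cells had been amplified, sequenced and aligned by the authors, and the submitters' processing notes name STAR 2.4.0, bcl2fastq 2.17 and mm10. The counting tool, annotation, strand setting and filters are not given in the sources used here. The authors deposited raw counts per gene and cell, 1 table for exons and 1 for introns, as whole numbers without normalization and without molecular identifiers. Of the 28 columns, 0 were matched to a sample label, so all were treated as cells of 1 pooled set, and no test between blocks was run.

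Counts were scaled to CPM by a cell's exonic or intronic total. Log2 ratios used a pseudocount of 1 CPM. A gene with at least 10 counts was called separate when the ranges of 2 blocks did not overlap. Medians, ranges, exact Poisson and binomial 95% intervals and Spearman correlations were computed in Python 3.11.15 (scipy 1.17.1). Positions, exon unions and coding sequences came from GENCODE M21 (GRCm38, the same assembly as mm10). Alternatives were the exonic and intronic total, edgeR 4.0.16 TMM factors, DESeq2 1.42.0 size factors (poscounts), other count minimums, other lengths and leaving out each cell. Leaving out groups of named cells, and single cells from densities and shares of the F block, was chosen after seeing the data. The separation and ratio steps were tested on simulated Poisson counts with a known change. Those counts lack the wide spread between real cells, so the test covers the computation alone.

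The members and gene lists were chosen with earlier results of these data known. Named genes were the 6 members, 4 Lrrtm genes, the 3 most alike genes per member, and per pathway list the 3 with the highest median exonic level and up to 5 without overlap in at least 2 comparisons. Other genes (Slc1a2, Gfap, Aldh1l1, Aqp4 and Ctnnbip1) were named after their values were seen.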

Additional observations from a re-analysis of the deposited data

Results flagged for a closer look

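In 7 of 24 groups of 8 cells the highest cell lay far from the others, by a gap of more than 0.526 of the group's whole range on the log2(CPM + 1) scale. Chance gives such a gap in about 1 in 20 groups of normally distributed values. Groups with most cells at or near 0, as in the F block, are not of that kind, so the rate is no measure of these 7, of which 6 were in the F block.

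For exonic levels of the F block, Ctnna1 in F7 stood at 1613 CPM with the other cells at 0 to 0.181 CPM. Ctnnd1 in F6 stood at 1830 CPM with the others at 0 to 1.26 CPM, and Ctnna2 in F1 at 328 CPM with the others at 0 to 11.2 CPM. Ctnna3 in F1 stood at 0.944 CPM and was at 0 in the other 7 cells. In the high-numbered BRP block, Ctnna3 in BRP566 stood at 0.509 CPM, from 8 counts, with the others at 0 to 0.202 CPM.

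For intronic levels of the F block, Ctnna1 in F1 stood at 63.7 CPM with the others at 0.327 to 6.70 CPM, and Ctnnb1 in F11 at 0.778 CPM, from 3 counts, with the others at 0 to 0.0951 CPM. The reason for these values was not tested.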

How the results depend on the processing

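No paired analysis was possible because the columns carry no replicate numbers and match no sample label. Of 138 recomputed counts of members without overlap between blocks, 129 equalled the reported count. Leaving out cells can raise such a count but never lower it, so those runs are no check of a separation already found. With DESeq2 size factors the exonic count fell to 0 between the high-numbered BRP and F blocks and to 0 between the low-numbered BRP and F blocks. Leaving out single cells gave 1 to 2 for both of these (2 without F1, F6 or F7 in the first, without F6 in the second) and 0 to 1 for the intronic count between the high-numbered and F blocks (1 without F7). Without F7, F11 and F12, added after seeing the data, the high-numbered and F blocks gave 2 exonic and 1 intronic, and without BRP528 and BRP529 no count moved. The share of all genes without overlap was not recomputed with cells left out.

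Intronic shares moved more than their counting intervals. As medians over cells they were 8.98% for Ctnna1, 84.1% for Ctnna2, 100% for Ctnna3, 0.0256% for Ctnnb1, 12.0% for Ctnnd1 and 45.0% for Ctnnd2. Over the BRP columns alone they were 5.90%, 79.6%, 95.8%, 0.992%, 32.7% and 52.6%, and over the F columns alone 1.45%, 92.3%, 99.9%, 0.226%, 0.514% and 58.4%. The F values rested on single cells: without F7 Ctnna1 was 99.3%, without F6 Ctnnd1 was 91.9% and without F1 Ctnnd2 was 93.4%. Leaving out single cells gave 3.93% to 6.03%, 80.1% to 83.6%, 96.0% to 97.7%, 0.732% to 1.07%, 14.8% to 32.9% (the highest without F6) and 51.2% to 60.4%. Of 372 recomputed median levels 370 moved by less than 1 SD over the 28 cells, and of 48 ranks per kb 42 did not move. That SD includes block differences and single high cells, so it is a wide bound and no measure of stability. Exonic Ctnna1, for example, had a median of 25.1 CPM with cells from 0 to 1613 CPM. Few exonic counts in the F block limit what can be said there: an alpha-family share could be given for 3 and a delta-family share for 4 of 8 F cells.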
